A study of Mus musculus with 12 samples.

Results

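Fut8 and Fut11 are the members of the FUT fucosyltransferase family on a quantitative PCR panel of mouse glycosylation genes. They were taken by their gene rows in the deposited value table and by the wells of each Ct file that hold the same values, and they make up 2 of the 84 panel genes. The panel was run on mouse dendritic cells of 4 groups, each deposited as 3 samples. The first group was the unstimulated DC2.4 line, an immortalized mouse dendritic cell line bought from Millipore Sigma. The second was DC2.4 collected after 4 days with TGF-beta, at 2.5 ng/ml by the design text and 10 ng/ml by the treatment protocol. The third was DC1, the class of conventional dendritic cells specialised for cross-presentation, sorted from spleen. The fourth was DC1 sorted from MCA101 fibrosarcomas that had been grown under the skin.

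The sorted groups differ in more than the tissue. The splenic cells are labelled XCR-1-positive and the tumor cells CD103-positive, while the design text names a CD103 and CD8 sort, and the marker used cannot be told apart from the tissue. The line also differs from the sorted cells in growth in culture, and line, culture and sort cannot be told apart either. Mouse strain, age and pooling are not given in the sources used here, and nothing says that samples came from separate cultures or animals, so the p-values speak only of the spread among these samples, and that spread may be technical. None of the 14 dendritic cell, macrophage, lymphocyte or fibroblast markers listed for a check of the labels is on the panel. In such bulk samples, fewer cells of a type and less RNA per cell cannot be told apart.

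Fucose is a sugar that enzymes attach to glycans and, for some proteins, directly to serine or threonine. Fut8 is the only mammalian enzyme that adds core fucose, in alpha-1,6 linkage, to the innermost N-acetylglucosamine of N-glycans, usually after Mgat1 has acted on the same glycan. Core fucose is known from antibodies, where its absence strengthens binding to Fc receptors, and from growth factor receptors such as those for TGF-beta. Fut11 belongs by sequence to the alpha-1,3-fucosyltransferases, and its human counterpart is reported to attach O-fucose to EMI domains of proteins in the endoplasmic reticulum. The panel holds 4 other fucose genes: Pofut1 and Pofut2, which attach O-fucose to EGF-like and thrombospondin type 1 repeats, and Fuca1 and Fuca2, which remove fucose.

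Each Ct file gives, per well, the threshold cycle (Ct), at which the fluorescence of the product crosses a fixed level. A lower Ct means more template. Levels below are log2 levels, the mean Ct of 5 reference wells minus the Ct of the gene, so that 1 unit is a doubling at full PCR efficiency. Primers differ in efficiency, and a level of Fut8 is therefore not set against a level of Fut11. In every group, the third file equals a constant times the mean of the other 2 files, to within 0.002 cycles, in 310 of the 336 wells compared. The wells of Fut8 and Fut11 match it in all 4 groups. Tests therefore used the other 8 samples, 2 in each group, and left out 19 genes. Most of these had wells that did not follow that relation. The genes of wells G06 to G12 were left out whatever the match, among them G08 and G10, which did follow it. In that stretch splenic replicate 1 repeated values of splenic replicate 2 from 1 well before, such as 28.28 and 29.26. The cause of the repeats was not tested. Between 64 and 76 of the 84 panel genes had a Ct under 35 in a sample, and 62 genes were tested.

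Promoter windows are shown because both genes were higher in the same cells. The windows come from RefSeq (GRCm38.p6), run from 250 bases before to 50 after an annotated start, and lie on the plus strand. Fut8, on chromosome 12, has 4 such windows. The first 2 of them, chr12:77238489-77238788 and chr12:77237854-77238153, are printed here with the only window of Fut11, chr14:20694718-20695017. Capitals mark matches on either strand to GGGCGG (a GC box) or to CCAAT.
Fut8 window 1: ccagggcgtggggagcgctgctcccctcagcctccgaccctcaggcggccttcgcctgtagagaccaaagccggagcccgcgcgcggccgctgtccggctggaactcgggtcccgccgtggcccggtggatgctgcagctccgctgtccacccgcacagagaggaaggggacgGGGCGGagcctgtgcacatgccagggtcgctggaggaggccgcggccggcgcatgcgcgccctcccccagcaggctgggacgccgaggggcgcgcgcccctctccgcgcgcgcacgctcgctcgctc
Fut8 window 2: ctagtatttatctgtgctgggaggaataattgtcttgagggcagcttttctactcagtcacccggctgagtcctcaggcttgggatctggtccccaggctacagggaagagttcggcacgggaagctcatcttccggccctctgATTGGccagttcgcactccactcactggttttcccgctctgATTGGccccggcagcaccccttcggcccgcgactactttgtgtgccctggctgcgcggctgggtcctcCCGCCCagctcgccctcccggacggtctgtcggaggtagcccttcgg
Fut11 window 1: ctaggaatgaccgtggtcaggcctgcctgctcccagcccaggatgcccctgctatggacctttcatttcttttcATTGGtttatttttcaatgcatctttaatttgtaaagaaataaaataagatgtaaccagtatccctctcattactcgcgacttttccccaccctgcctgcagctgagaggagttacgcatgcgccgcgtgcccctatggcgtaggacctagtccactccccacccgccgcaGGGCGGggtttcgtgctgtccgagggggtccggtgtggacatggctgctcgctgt
Fut8 window 1 held 39 CpG dinucleotides, more than 95.6% of the 32851 RefSeq mouse windows, and 1 GC box. Fut8 window 2 held 18 CpG, 1 GC box and 2 CCAAT matches, and the Fut11 window held 15 CpG, 1 GC box and 1 CCAAT match. These matches are common: 35.7% of all windows held a GC box and 37.4% held CCAAT. The other windows of Fut8, chr12:77388614-77388913 and chr12:77409891-77410190, held 0 and 4 CpG and neither motif. None of the 5 windows matched the ETS-IRF composite element (2.7% of all windows), the core of the interferon-stimulated response element (3.4%), the AP-1 site TGANTCA (7.8%) or the SMAD palindrome GTCTAGAC (0.2%), all read on both strands. The ETS-IRF and interferon elements can overlap. A match or its lack in these windows says nothing of binding.

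Sorted DC1 carried more Fut8 and Fut11 transcript than the DC2.4 line. Fut8 was 13.5-fold higher in DC1 and Fut11 6.01-fold higher, and for each gene every DC1 sample lay above every DC2.4 sample. Both genes were detected in all samples, with no Ct over 35.

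The Ct of Fut8, the core fucosyltransferase, was 30.81 and 26.72 in unstimulated DC2.4, 32.34 and 26.33 in TGF-beta DC2.4, 28.04 and 31.26 in splenic DC1, and 29.81 and 28.44 in tumor DC1. The log2 level of Fut8 was -10.18 and -9.77 in unstimulated DC2.4, -10.26 and -9.36 in TGF-beta DC2.4, -5.73 and -6.94 in splenic DC1, and -5.91 and -6.0 in tumor DC1. The raw Ct overlapped between the line and DC1, and the levels relative to the reference wells did not. Mean Fut8 levels were -9.89 ± 0.41 in DC2.4 and -6.14 ± 0.54 in DC1 (SD, n = 4 each). The log2 difference was 3.75 ± 0.45 (SE, 95% interval 2.75 to 4.75, limma adjusted p = 9.18e-05), or 13.5-fold with an interval of 6.73 to 26.9. This was the third highest difference, and the third smallest p, among the 62 genes tested.

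The Ct of Fut11, the other FUT family member, was 29.00 and 26.54 in unstimulated DC2.4, 30.69 and 26.01 in TGF-beta DC2.4, 27.58 and 30.87 in splenic DC1, and 30.18 and 29.61 in tumor DC1. The log2 level of Fut11 was -8.37 and -9.58 in unstimulated DC2.4, -8.62 and -9.04 in TGF-beta DC2.4, -5.27 and -6.55 in splenic DC1, and -6.28 and -7.16 in tumor DC1. The lowest Fut11 level in DC1, in tumor replicate 2, was above the highest in DC2.4, in unstimulated replicate 1. Mean Fut11 levels were -8.90 ± 0.53 in DC2.4 and -6.32 ± 0.79 in DC1 (SD, n = 4 each). The log2 difference was 2.59 ± 0.49 (SE, 95% interval 1.5 to 3.67, limma adjusted p = 0.00229), or 6.01-fold with an interval of 2.83 to 12.8, and was the fifth by size.

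**Figure D1:**
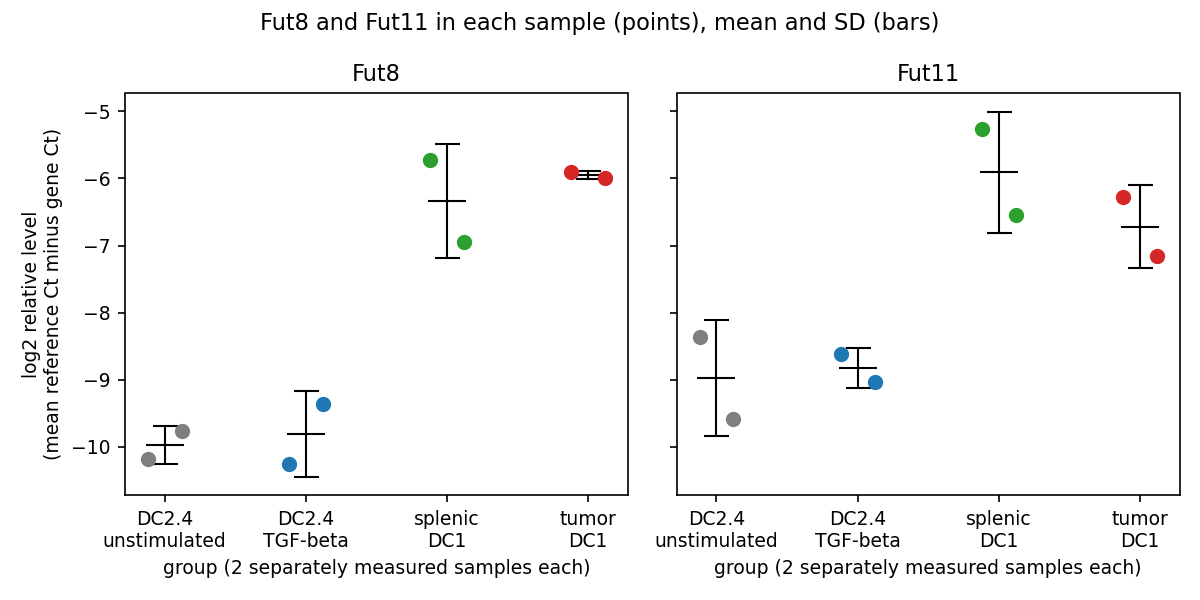
Log2 levels of Fut8 and Fut11 (mean Ct of 5 reference wells minus Ct of the gene) in each measured sample, by group, with the group mean and SD (n = 2). All DC1 points of each gene lie above all DC2.4 points, and levels of the separate genes are not comparable.

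Across the panel, 21 of the 62 genes (33.9%) differed between DC1 and DC2.4 of which 8 (12.9%) were higher and 13 (21%) lower in DC1. They included Galnt12, Galnt10, Fut8, Man2b1, Fut11, Fuca1 and St3gal1. Without regard to the test, 7 genes (11.3%) were higher in every DC1 sample than in every DC2.4 sample. The median log2 difference of all tested genes was -0.28, and relative to it Fut8 stood at 4.03 and Fut11 at 2.86.

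**Figure D2:**
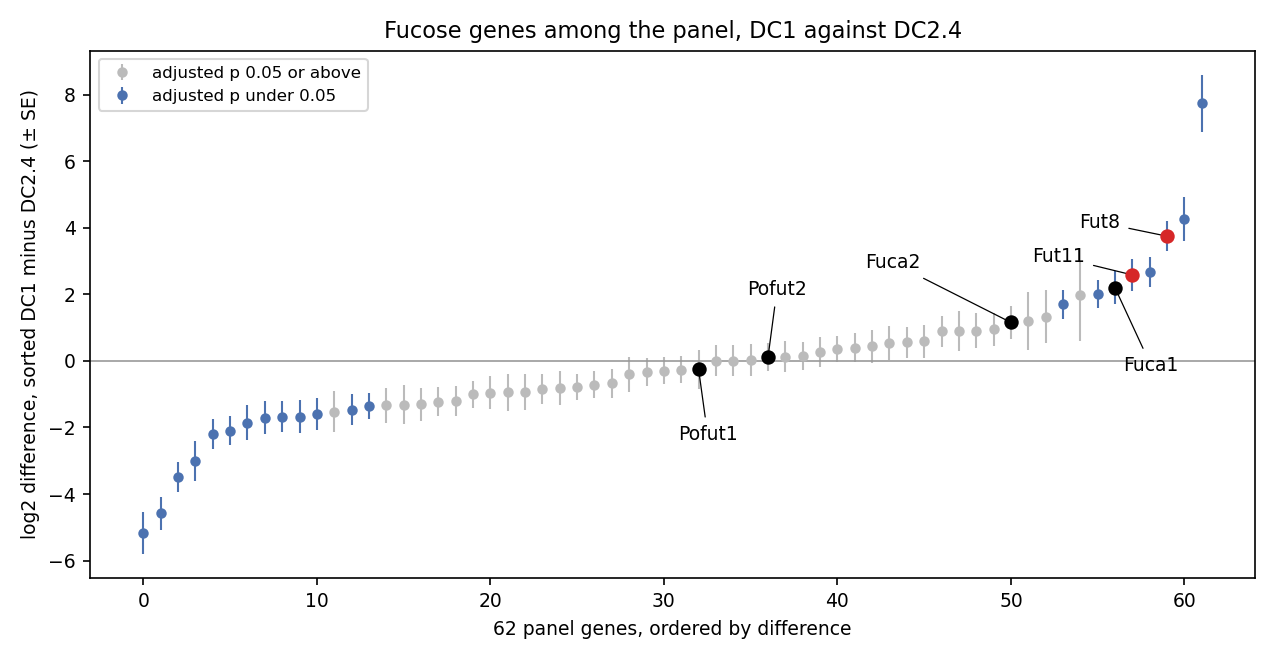
Log2 difference, sorted DC1 minus DC2.4, of the 62 tested panel genes in order of size, with SE bars, blue where the limma adjusted p is under 0.05. Fut8 (3.75) and Fut11 (2.59), in red, lie near the upper end, and Pofut1 and Pofut2 lie near 0.

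The size of both differences moved with the reference wells. Against the mean of the other 4 reference wells, log2 levels in DC1 minus DC2.4 were 1.80 for Actb, 0.72 for B2m, 0.22 for Gusb, -0.68 for Hsp90ab1 and -2.06 for Gapdh. Only Actb is named by the deposited tables, and the other names follow the manufacturer's usual plate order. The Fut8 difference was 2.31 with Actb alone as reference and 5.40 with Gapdh alone, and it passed the test in all 6 choices tried. The Fut11 difference ran from 1.14 (Actb) to 4.24 (Gapdh), and it did not pass with Actb (limma adjusted p = 0.133) or with B2m (2.01, limma adjusted p = 0.17). With Actb alone, Fut11 in tumor replicate 2 stood 10.46 cycles after Actb, within the DC2.4 range of 9.80 to 10.48, while Fut8 did not overlap. Which reference was stable between the line and DC1 was not tested. Leaving out any 1 sample gave 3.45 to 4.05 for Fut8 and 2.27 to 2.91 for Fut11, and both passed in every case.

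**Figure D3:**
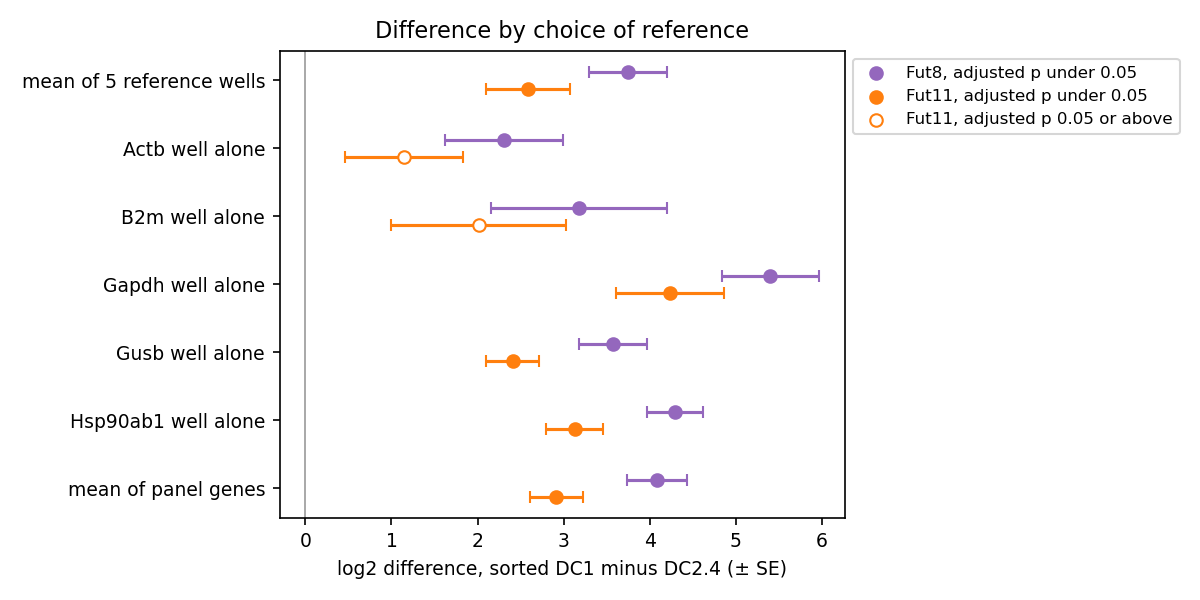
Log2 difference, DC1 minus DC2.4, of Fut8 and Fut11 under each choice of reference wells, with SE bars. Fut8 runs from 2.31 to 5.40 and Fut11 from 1.14 to 4.24, and for each gene Actb alone gives the lowest value and Gapdh alone the highest.

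The samples also differed in the Ct of the reference wells. Their mean was 16.96 to 22.07 in DC2.4 and 22.31 to 24.32 in DC1, and did not overlap. Singly, the wells of Gapdh, Gusb and Hsp90ab1 did not overlap either, while those of Actb (up to 20.75 in DC2.4 and from 19.15 in DC1) and B2m (up to 22.09 and from 21.40) did. Within the line, replicate 1 of unstimulated and TGF-beta cells had reference means of 20.63 and 22.07 and replicate 2 had 16.96 and 16.97. Between these DC2.4 replicates the Fut8 level differed by less than 1 log2 unit in each group, and the Fut11 level was higher in replicate 1 of each. The part of the amount of template in the difference between the line and DC1 was not tested.

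Splenic DC1 against the unstimulated line, and tumor DC1 against the TGF-beta-treated line, split the same 8 samples into separate pairs of groups. They are not independent of the pooled comparison. Fut8 was 12.5-fold higher in splenic DC1 than in unstimulated DC2.4 (log2 3.64 ± 0.64 SE, limma adjusted p = 0.00506), where 8 of 62 genes (12.9%) were higher. Leaving out splenic replicate 1 gave a log2 difference of 3.04 and leaving out splenic replicate 2 gave 4.24, and the call held in each case. In the same comparison Fut11 was 8.37-fold higher (log2 3.06 ± 0.70 SE, limma adjusted p = 0.0141). The Fut11 call was lost without splenic replicate 1 (log2 2.43) and without unstimulated replicate 2 (log2 2.46), and the value was 3.70 with splenic replicate 2 left out and 3.67 with unstimulated replicate 1 left out.

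Fut8 was 14.5-fold higher in tumor DC1 than in TGF-beta DC2.4 (log2 3.86 ± 0.64 SE, limma adjusted p = 0.000585), where 7 of 62 genes (11.3%) were higher. Fut11 was 4.31-fold higher there (log2 2.11 ± 0.70 SE, limma adjusted p = 0.0386), and leaving out any 1 of the 4 samples compared ended this call, with values of 1.67 to 2.55. With Actb or B2m alone as reference, neither gene passed in the splenic or the tumor comparison. The median of all tested genes was 0.27 in the splenic comparison and -0.80 in the tumor comparison. The larger difference of Fut11 in the splenic comparison is the interaction given below, which did not pass.

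**Figure D4:**
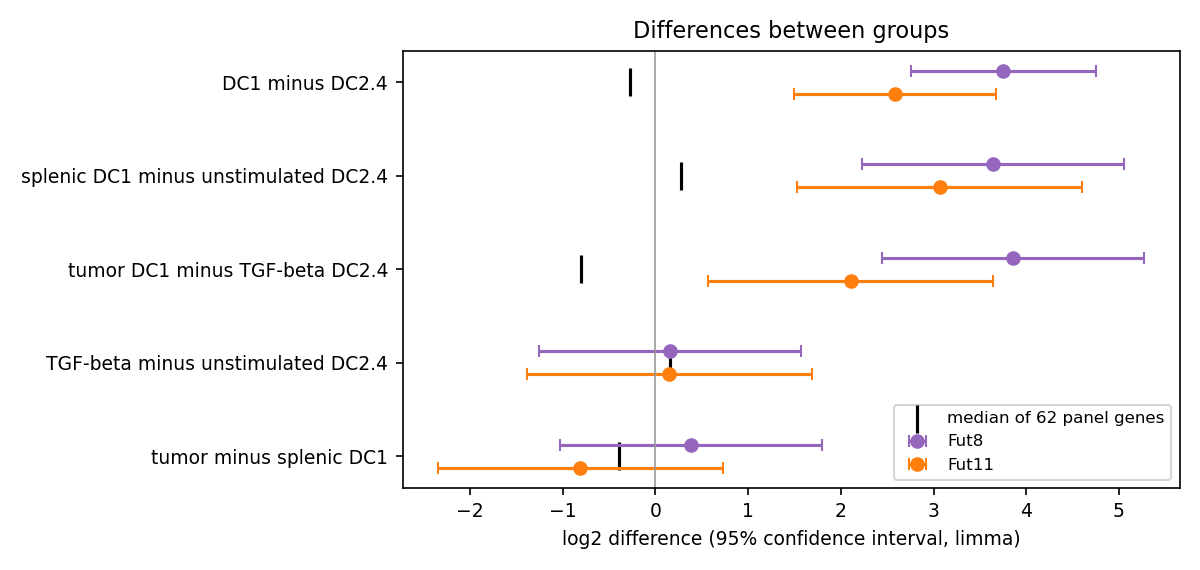
Log2 differences of Fut8 and Fut11 with 95% intervals in each comparison, and the median of the 62 tested genes as a black bar. The intervals of the 3 comparisons of DC1 with the line lie above 0, and those of TGF-beta against unstimulated DC2.4 and of tumor against splenic DC1 include 0.

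Between TGF-beta and unstimulated DC2.4 both genes differed by less than the spread of the replicates. Mean Fut8 levels were -9.97 ± 0.29 in unstimulated and -9.81 ± 0.64 in TGF-beta DC2.4 (SD, n = 2 each), and the samples overlapped. The log2 difference of Fut8 was 0.16 ± 0.64 (SE, 95% interval -1.25 to 1.57, limma adjusted p = 0.975). Fut11 differed by 0.15 ± 0.70 (SE, 95% interval -1.39 to 1.68, limma adjusted p = 0.975), again with overlap. With Gapdh alone as reference the sign of both turned (Fut8 -0.13, Fut11 -0.14). The intervals leave room for a change of more than 1 log2 unit either way. In the same comparison 10 of 62 genes (16.1%) passed the test, all higher with TGF-beta.

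Tumor and splenic DC1 did not differ in either gene beyond the replicate spread. Fut8 averaged -6.33 ± 0.85 in splenic and -5.95 ± 0.06 in tumor DC1 (SD, n = 2 each), with both tumor values between the splenic ones. The log2 difference, tumor minus splenic, was 0.38 ± 0.64 (SE, 95% interval -1.03 to 1.79, limma adjusted p = 0.807). Fut11 averaged -5.91 ± 0.90 in splenic and -6.72 ± 0.62 in tumor DC1, with overlapping samples, and differed by -0.81 ± 0.70 (SE, 95% interval -2.35 to 0.73, limma adjusted p = 0.561). In this comparison 8 of 62 genes (12.9%) passed, all lower in tumor DC1, and the median of all genes was -0.39. The sign of the Fut8 difference turned with Actb or Gusb alone as reference (-0.54 with each). With Gusb alone as reference Fut11 passed as lower in tumor DC1 (log2 -1.73, limma adjusted p = 0.0161), and with Gapdh alone its sign turned.

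By mean level, Fut8 ran from unstimulated to TGF-beta DC2.4, then splenic and tumor DC1, from low to high. Fut11 ran from unstimulated to TGF-beta DC2.4, then tumor and splenic DC1. In each order only the step from the line to DC1 separated the samples. The difference between the tissue effect in DC1 and the TGF-beta effect in the line was 0.22 ± 0.91 for Fut8 (SE, limma adjusted p = 0.915) and -0.96 ± 0.99 for Fut11 (SE, limma adjusted p = 0.676), while 11 of 62 genes (17.7%) passed.

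The Ct of Fut11 minus that of Fut8 in the same sample is a log2 ratio that does not depend on the reference wells, and only its differences between samples can be read. It was -1.81 and -0.19 in unstimulated DC2.4, -1.64 and -0.33 in TGF-beta DC2.4, -0.46 and -0.39 in splenic DC1, and 0.37 and 1.16 in tumor DC1. The tumor DC1 samples were the highest, and the splenic samples lay within the range of the line. The mean ratio was 0.17 ± 0.76 in DC1 and -0.99 ± 0.85 in DC2.4 (SD, n = 4 each). The difference of 1.16 log2 units, or 2.24-fold toward Fut8 in DC1, gave p = 0.1714 in a two-sided exact permutation test, whose smallest possible p is 0.0286. Within the line the ratio was low in the 2 samples with the later mean reference Ct, and the part of the amount of template was not tested.

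**Figure D5:**
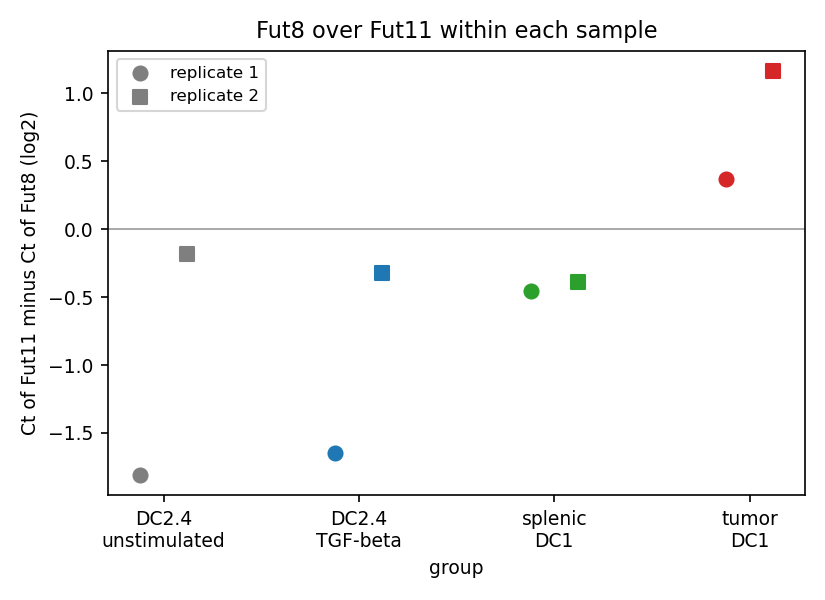
Log2 ratio of Fut8 to Fut11 within each measured sample (Ct of Fut11 minus Ct of Fut8), by group. Tumor DC1 lies at 0.37 and 1.16, splenic DC1 at -0.46 and -0.39, and the line from -1.81 to -0.19.

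The authors' deposited table of fold changes ran the other way for tissue. It gave Fut8 in tumor over splenic DC1 as 0.588, 0.585 and 0.578 and Fut11 as 1.38, 1.38 and 1.40. From the authors' deposited table the ratio of Fut8 to Fut11 in tumor over splenic DC1 was thus 0.427, 0.424 and 0.412, whereas the Ct files gave 2.28-fold, or 0.438 for splenic over tumor DC1. For 5 of the 6 fucose genes all values of the authors' deposited table lay on the opposite side of 1 from the Ct files, and for Pofut1 they lay on both sides (1.01, 1.02 and 0.971, against 0.786). A reference shared by both genes cancels in this ratio. For TGF-beta over unstimulated DC2.4 the authors' deposited table gave 0.94, 0.59 and 1.135 for Fut8 and 0.84, 0.53 and 1.15 for Fut11. The corresponding ratio of Fut8 to Fut11 in the authors' deposited table was 1.12, 1.11 and 0.987, against 1.01 from the Ct files. With the splenic and tumor labels exchanged, an alternative chosen after the data were seen, Fut8 differed by -0.38 and Fut11 by 0.81 between tissues, and the comparison of all DC1 with DC2.4 did not change, as it pools both tissues.

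In 2 deposited files the wells stood 1 position early against the others, splenic replicate 3 and tumor replicate 2. Moving them by 1 well raised the Spearman correlation with the Ct of splenic replicate 1, the only sample used for this check, from -0.089 to 0.461 and from 0.045 to 0.807. The deposited value table carries the unmoved wells, which matters for both genes. For tumor replicate 2 it lists Fut8 at 5.99, against 9.30 cycles after Actb in the moved file, and Fut11 at 7.05 against 10.46. The listed values come from the next wells, Galnt1 for Fut8 and Fut8 for Fut11, less the B2m well in place of Actb. In splenic replicate 3 it lists Fut8 at 6.02 against 8.72 and Fut11 at 7.48 against 8.29. Read as cycles after Actb, each unmoved value would stand for a higher level than the moved one.

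Of the 6 fucose genes of the panel, all tested, 3 were higher in DC1 than in DC2.4 and 0 lower by limma (4 and 0 at an unadjusted p under 0.05), beside 12.9% higher and 21% lower over all tested genes. The 3 were Fut8, Fut11 and Fuca1, the lysosomal fucosidase. The median log2 difference of the 6, which count Fut8 and Fut11 themselves, was 1.68, against -0.28 for all tested genes. Among the others only Fuca1 passed. With Actb alone as reference Fut8 was higher and Pofut1 was lower, with B2m alone 1 of them was higher, and with Gapdh alone 5 were higher. The list was chosen with earlier results of these samples known.

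Fuca1 levels were -4.33 and -3.85 in unstimulated DC2.4, -6.63 and -5.15 in TGF-beta DC2.4, -3.0 and -4.36 in splenic DC1, and -1.81 and -2.0 in tumor DC1. Splenic DC1 overlapped the unstimulated line, and the samples labelled tumor DC1 were above all others. The authors' deposited table ran the other way for tissue, with Fuca1 in tumor over splenic DC1 at 0.24, 0.226 and 0.245. The Ct files gave 3.41-fold, or 0.293 if the DC1 labels are turned. The log2 difference of Fuca1 between DC1 and DC2.4 was 2.20 ± 0.50 (SE, 4.58-fold, limma adjusted p = 0.00526), and in tumor DC1 against TGF-beta DC2.4 it was 3.98 ± 0.70. Fuca2, the secreted fucosidase, differed by 1.16 ± 0.49 (SE, limma adjusted p = 0.0862).

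With the mean of the reference wells, the enzymes that put O-fucose on other proteins gave small differences. Pofut1, whose substrates include Notch receptors, averaged -6.72 ± 0.75 in DC2.4 and -6.98 ± 0.98 in DC1 (SD, n = 4 each). Pofut2 averaged -5.65 ± 0.39 and -5.53 ± 0.82. Neither passed the test with the mean of the reference wells (limma adjusted p = 0.749 and 0.827), and the sign of each turned with the reference, positive in 3 of the 6 choices. Over these choices the log2 difference ran from -1.70 to 1.40 for Pofut1 and from -1.33 to 1.77 for Pofut2. Pofut1 passed as lower in 1 choice and Pofut2 as higher in 1.

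Among enzymes that trim and build the glycan on which Fut8 acts, the share called lower in DC1 was near that of the panel. Of 10 tested genes of trimming and N-glycan entry, 0 were higher in DC1 and 2 were lower by limma, against 0 and 3 at an unadjusted p under 0.05. Over all tested genes the shares were 12.9% higher and 21% lower. The 2 were the Golgi mannosidases Man1a2 (log2 -1.68 ± 0.47 SE, limma adjusted p = 0.019) and Man1c1 (log2 -1.67 ± 0.51 SE, limma adjusted p = 0.0225). Each passed in 4 of the 6 reference choices and had a negative sign in all 6. The median of the 10 was -0.53. Mgat1, which makes the usual acceptor of Fut8, differed by 0.95 ± 0.49 (SE, limma adjusted p = 0.153), with a negative sign under 1 reference choice.

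The branching enzymes, which compete for or extend the same glycans, numbered 7 on the list, of which 5 were tested. Pooled over both tissues, 0 of them passed by limma, with 3 lower at an unadjusted p under 0.05, and their median was -1.01. Over all tested genes 12.9% passed as higher and 21% as lower. With the DC1 labels as deposited, the medians of the separate comparisons had opposite signs. The median of the branching genes was 1.58 in splenic DC1 against unstimulated DC2.4, where 0 passed. It was -1.37 in tumor DC1 against TGF-beta DC2.4, where 2 passed as lower, Mgat5 and Mgat4a. This split rests on the splenic and tumor labels, and the authors' deposited table ran the other way for tissue in most fucose genes. Mgat4a and Mgat5 differed by -2.09 and -2.25 between tumor and splenic DC1. Exchanged labels would thus lower their splenic values and make their tumor values less negative. Of 4 listed galactose-capping genes 3 were tested. B4galt1, a main galactosyltransferase of N-glycans, was lower in DC1 pooled over both tissues (log2 -2.09 ± 0.43 SE, limma adjusted p = 0.00296). By sign this held in all 6 reference choices, and by the test in 4. With the DC1 labels as deposited, B4galt1 was not lower in splenic DC1 against unstimulated DC2.4 (log2 0.86 ± 0.61 SE, limma adjusted p = 0.417). In tumor DC1 against TGF-beta DC2.4 it differed by -5.04 ± 0.61 (SE, limma adjusted p = 9.22e-05). Between tumor and splenic DC1 the B4galt1 difference was -2.63. Exchanged labels would thus lower its splenic value and make its tumor value less negative.

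The genes whose levels ran closest to those of Fut8 over the 8 samples were ranked by the root mean square of the log2 difference, after each gene was centred on its own mean. They were Man2b1 (0.73), Galnt10 (0.84), Fut11 (0.91), St3gal1 (1.04) and Fuca1 (1.16), against a median of 2.24 over the 61 other tested genes. For Fut11 they included St3gal1 (0.67), Man2b1 (0.68), Fut8 (0.91) and Mgat1 (0.91), against a median of 1.68. Man2b1 is a lysosomal mannosidase, Galnt10 starts O-glycans and St3gal1 adds sialic acid to them. The Ct of Galnt10 in TGF-beta DC2.4 replicate 1 was 38.98 and was set to 35, so its distance depends on that ceiling. The distance is a description over samples that share reference wells.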

How the data were processed

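Glycosylation transcripts were measured by SYBR Green quantitative PCR on 96-well plates, from 50 to 100 ng RNA per the labels' protocols. The deposited Ct values (baseline cycles 3 to 15, threshold 0.2, per the file headers) were made by the instrument and not normalized. The deposited value table is on a log2 scale, and the match to the files shows Ct minus the Ct at the listed position of Actb. The authors' deposited fold changes are ratios with no statement of how they were computed. Genes were named by matching wells to that table within 0.002 cycles, and 83 of 84 symbols were found in RefSeq.

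Log2 levels were computed as the mean Ct of 5 reference wells minus Ct. The third file of each group, a multiple of the mean of the other 2 files (multiplied by 1.021, or divided by 1.1 or 1.08), was left out. So were 19 genes, called inconsistent here, that did not follow this relation or lay in wells G06 to G12. Genes with Ct under 35 in at least 4 of the 8 samples were kept, and a Ct over 35 or a blank well was set to 35. A limma 3.58.1 model (R 4.3.3) of the 4 groups gave 6 contrasts, with Benjamini-Hochberg adjustment over 62 genes and a threshold of 0.05. The script was tested on simulated data. The ratio was tested with scipy 1.17.1. Without molecule counts, the number of samples limits the precision. Alternatives were the reference wells, filters, the deposited table, all 12 files and leaving out each sample. Added after the data were seen were the exchange of DC1 labels and the count of the fucose list by setting.

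Members and gene lists were chosen with earlier results of these data known. Genes other than Fut8 and Fut11 are named if on those lists or among the 5 nearest by level, and genes higher in DC1 are listed after their values were seen. A gene that these rules name is not reported here. No protein sequences were used here.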

Additional observations from a re-analysis of the deposited data

Results flagged for a closer look

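Fuca1, the lysosomal fucosidase, was the only fucose gene whose tissue effect in DC1 differed from the TGF-beta effect in the line by a test of the difference itself. The difference, tumor minus splenic DC1 less TGF-beta minus unstimulated DC2.4, was 3.57 ± 1.00 (log2, SE, limma adjusted p = 0.0251). Its parts were 1.77 ± 0.70 in DC1 and -1.80 ± 0.70 in DC2.4, and neither passed on its own (limma adjusted p = 0.165 and 0.117). With the splenic and tumor labels exchanged the difference was 0.03. It did not pass with Actb (2.77), B2m (2.80) or Gusb (2.69) alone as reference, with the inconsistent genes kept, or with the deposited value table (3.03), and it ran from 2.83 to 4.31 when 1 sample was left out.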

How the results depend on the processing

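Fut8 in DC1 against DC2.4 kept its direction and its call in all 22 alternatives, among them each choice of reference, filter and left-out sample, the deposited table (2.41) and all 12 files. All values are log2 differences unless called counts. With Actb alone, B2m alone and the deposited table in turn, these calls were lost: Fut11 in DC1 against DC2.4 (1.14, 2.01 and 1.45), Fut8 in splenic DC1 against unstimulated DC2.4 (2.60, 3.45 and 2.60), Fut11 there (2.02, 2.88 and 2.02), Fut8 in tumor DC1 against TGF-beta DC2.4 (2.02, 2.90 and 2.23) and Fut11 there (0.27, 1.15 and 0.87). The last was also lost, at 2.11, with late Ct set to 40, no filter or the inconsistent genes kept. The cause was not tested. The deposited table changes the reference to Actb and leaves out tumor replicate 2.

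Small differences turned sign. For TGF-beta these were Fut8 with Gapdh (-0.13) and with the panel mean (-0.34), and Fut11 (-0.14 and -0.35). Between tumor and splenic DC1, Fut8 was -0.54 with Actb, -0.54 with Gusb, -0.33 in the deposited table and -0.38 with exchanged labels. There Fut11 was 1.16 with Gapdh and 0.81 with exchanged labels, and -1.73 with Gusb, which passed. For the difference between the tissue and TGF-beta effects, Fut8 was -0.57 with Actb, -0.55 with B2m, -0.65 with Gusb, -0.36 in the deposited table and -0.54 with exchanged labels. Fut11 was 1.30 with Gapdh, 0.25 with the panel mean and 0.66 with exchanged labels. The ratio of Fut8 to Fut11 was 1.14 over all 12 files and passed there, where the file computed from the other 2 of its group counts as a sample.

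Leaving out 1 sample gave 2.43 to 3.70 for Fut11 in splenic DC1 against unstimulated DC2.4 and 1.67 to 2.55 in tumor DC1 against TGF-beta DC2.4. For Fut8 the second was 3.41 to 4.31. For TGF-beta it gave -0.29 to 0.61 (Fut8) and -0.46 to 0.76 (Fut11), for tissue -0.22 to 0.98 and -1.45 to -0.17, for the difference of effects -0.38 to 0.82 and -1.60 to -0.32, and for the ratio 0.83 to 1.43.

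Counts of called genes moved more. In DC1 against DC2.4 (21) they were 36 with Actb, 7 with B2m, 33 with Gapdh, 34 with Gusb, 39 over 12 files and 14 to 28 with 1 sample left out. In splenic DC1 against unstimulated DC2.4 (8) they were 5 with Actb, 2 with B2m, 14 with Gusb, 16 with Hsp90ab1, 14 with the panel mean, 5 with late Ct at 40, 5 with no filter, 27 over 12 files and 3 to 10 with 1 left out. In tumor DC1 against TGF-beta DC2.4 (21) they were 42 with Actb, 13 with B2m, 39 with Gapdh, 38 with Gusb, 45 over 12 files and 15 to 25 with 1 left out. For TGF-beta (10) they were 1 with B2m, 5 with only the groups of the contrast and 5 to 12 with 1 left out. For tissue (8) they were 0 by limma with B2m (7 at an unadjusted p under 0.05), 1 with Gapdh, 32 with Gusb, 3 with late Ct at 40, 4 with no filter, 2 with inconsistent genes kept, 22 over 12 files, 4 with only its groups and 1 to 10 with 1 left out. For the difference of effects (11) they were 19 with Gusb, 19 over 12 files, 0 by limma with exchanged labels (1 at an unadjusted p under 0.05) and 9 to 13 with 1 left out. The fit of only the groups of the contrast is the same as the reported one where all 4 groups enter and was not run there.

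No paired analysis was possible because the labels give no replicate numbers shared between groups, and the numbers used here follow the order of deposit. With 2 measured samples per group the intervals span more than 1 log2 unit.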

Other observations

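Between TGF-beta and unstimulated DC2.4, 2 of the 5 tested branching genes and 1 of the 3 tested capping genes were higher and 0 were lower by limma (3 and 1 higher, 0 lower at an unadjusted p under 0.05), beside 16.1% higher over all tested genes. With B2m alone as reference 1 gene of the panel passed. Mgat4a and Mgat5, which start branches, and B4galt1, which adds galactose to them, had log2 differences of 3.20 ± 0.59, 3.29 ± 0.64 and 3.27 ± 0.61 between TGF-beta and unstimulated DC2.4 (SE, limma adjusted p = 0.00719 for each). In tumor against splenic DC1 the same 3 genes were lower, at -2.09 ± 0.59, -2.25 ± 0.64 and -2.63 ± 0.61 (SE, limma adjusted p = 0.0446, 0.0446 and 0.0214), as was Man1c1 (-2.81 ± 0.72 SE, limma adjusted p = 0.031). Values with the DC1 labels exchanged have the opposite sign.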
